A study of Mus musculus with 3 samples.

Results

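*Glycam1* (ENSMUSG00000022491) encodes glycosylation-dependent cell adhesion molecule 1, a small secreted protein of the mucin type. It is 1 gene of the 32285 counted in each of 3 libraries of inguinal stromal vascular fraction (SVF) cells. The gene was selected on its values in these same libraries, where it was high in venular endothelial cells and was also present among RNA outside cells. Its level by cell type, genotype and barcode depth is therefore given as a description, and no test was made of it.

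High endothelial venules (HEVs) are the tall-walled venules through which lymphocytes leave the blood to enter a lymph node. Their endothelial cells make *Glycam1* and decorate it with sulfated and fucosylated sugars to which lymphocytes bind. The same protein is also secreted by the mammary gland, and both the mammary gland and a lymph node lie in the inguinal fat pad of the mouse.

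The SVF cells were obtained by collagenase digestion of inguinal fat from 4-week-old mice and depleted of dead and CD45-positive cells by FACS with DAPI and Cd45 staining. The groups were wild-type mice, mice with a global deletion of *Mgp* (*Mgp*-KO), and mice with floxed *Mgp* alleles and a *Pdgfra*-Cre transgene (*Pd*-KO), in which deletion is limited to cells with a history of *Pdgfra* promoter activity. Each genotype is 1 library of cells pooled from several mice of both sexes, so no value has a replicate, all intervals are 95% intervals for counting error only, and a difference in genotype cannot be told apart from a difference in dissection, digestion or library. A library of floxed mice without Cre was not analysed here, and the label for batch is the same number for all libraries. The file headers name another version of the counting software for the wild-type library than for the knockout libraries.

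Barcodes with at least 1000 unique molecular identifiers (UMIs) and at most 10% mitochondrial UMIs were kept as cells. There were 11350 such cells in the wild-type library, 13086 in the *Mgp*-KO library and 9227 in the *Pd*-KO library, with medians of 12084.5, 6290.5 and 8015 UMIs. Between 37 and 42 kept barcodes were shared by each pair of libraries. *Mgp*, the deleted gene, was counted at 451 UMIs per 1000000 UMIs (CPM) in the wild-type cells, 1.75 CPM in the *Mgp*-KO cells and 18.4 CPM in the *Pd*-KO cells. Barcodes of 10 to 100 UMIs, too few for a cell, were summed as the free RNA of a library. They numbered 37156 in the wild-type, 52008 in the *Mgp*-KO and 68925 in the *Pd*-KO library. Above 100 and below 1000 UMIs there were 71946, 1353 and 2590 barcodes in the same order, with 31085853, 377532 and 680198 UMIs. Free RNA as defined here thus covers unlike parts of the low-count barcodes of each library. Where values are listed without a name, the first is that of the wild-type, the second that of the *Mgp*-KO and the last that of the *Pd*-KO library. Cells with leukocyte markers and no other marker set numbered 11, 14 and 67 after the CD45 sort.

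The gene lies on mouse chromosome 15, on the minus strand, at chr15:103562759-103565081 (GRCm38, GENCODE M21). Its coding transcript has 4 exons and 151 codons, of which 23 code for serine and 19 for threonine, the residues to which mucin sugars are attached. The share of serine and threonine codons was 27.8%, above that of 99.8% of 21537 coding genes, whose median was 13.2%. Other carriers of the same sugars had 24.3% (*Cd34*), 27.6% (*Podxl*), 29.1% (*Emcn*) and 17.3% (*Madcam1*). The densest part was the third exon, in which 23 of 71 whole codons (32.4%) code for either residue. Its whole codons, at chr15:103563244-103563456, are shown 5′ to 3′ on the coding strand to make the mucin-like stretch visible, with serine and threonine codons in capitals.

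*Glycam1* exon 3: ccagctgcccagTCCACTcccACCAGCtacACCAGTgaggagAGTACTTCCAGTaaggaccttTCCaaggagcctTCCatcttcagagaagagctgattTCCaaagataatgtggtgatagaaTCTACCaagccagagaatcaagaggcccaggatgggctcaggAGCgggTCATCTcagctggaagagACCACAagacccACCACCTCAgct

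The libraries differed widely in *Glycam1*. In all barcodes together, 138879 *Glycam1* UMIs were counted in the wild-type library, 815 in the *Mgp*-KO library and 9104 in the *Pd*-KO library. Kept cells held 63.0%, 49.2% and 79.2% of them. In kept cells, the CPM were 598 (594 to 602), 4.44 (4.01 to 4.89) and 93.7 (91.5 to 95.8). These levels rested on few cells. The 5 cells with most *Glycam1* held 42.9% of the UMIs of kept cells in the wild-type library, 85.3% in the *Mgp*-KO library and 93.4% in the *Pd*-KO library, and without them the level was 342, 0.653 and 6.22 CPM.

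Endothelial cells were recognized by at least 2 detected genes and at least 3 UMIs over *Pecam1*, *Cdh5*, *Egfl7*, *Cldn5*, *Emcn* and *Kdr*. Stromal, mural, epithelial, Schwann, leukocyte and adipocyte cells were gated in the same way on their own markers, and *Glycam1* was never used for a gate. Among cells that passed the endothelial gate only, *Glycam1* stood at 10988 CPM (10864 to 11113) in 513 wild-type cells, 302 CPM (269 to 339) in 344 *Mgp*-KO cells and 2008 CPM (1957 to 2059) in 781 *Pd*-KO cells. The library order was thus wild-type, *Pd*-KO and *Mgp*-KO, with log2 ratios to wild-type of -2.45 (-2.49 to -2.41) for *Pd*-KO and -5.18 (-5.35 to -5.02) for *Mgp*-KO. Without the 5 richest cells of each library, these ratios were -5.92 and -8.10. Those 5 cells are a larger part of the *Glycam1*-rich cells, described further on, in the knockout libraries. The wider gap is thus in part set by the step and is no added support. Without all *Glycam1*-rich cells, the class stood at 185 CPM in the wild-type, 4.18 CPM in the *Mgp*-KO and 8.51 CPM in the *Pd*-KO library.

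In the wild-type library, the classes with the next levels were leukocytes with 446 CPM (244 to 749, 11 cells), mural cells with 165 CPM (151 to 179) and Schwann cells with 160 CPM (126 to 199). Stromal cells had 75.9 CPM (74.1 to 77.8) and epithelial cells 66.1 CPM (53.6 to 80.6). The intervals of mural and Schwann cells overlapped, as did those of stromal and epithelial cells. In the 3 adipocytes no UMI was counted, which allows up to 54.2 CPM at 3 counts.

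For *Pd*-KO, the endothelial class was followed by leukocytes with 44.1 CPM (19.0 to 86.9), epithelial cells with 11.8 CPM (6.09 to 20.6), mural cells with 4.67 CPM (2.14 to 8.86) and stromal cells with 2.74 CPM (2.35 to 3.18). Each of these classes overlapped the next one in its interval, and single cells held 7 of the 8 leukocyte UMIs and 11 of the 12 epithelial UMIs, so the order of these classes rests on them. In the *Mgp*-KO library 11 UMIs were found in 11030 stromal cells (0.142 CPM, 0.0709 to 0.254) and 1 UMI in 13 adipocytes. No UMI was found there in 211 mural cells, which allows up to 4.39 CPM, or in 522 epithelial cells, which allows up to 0.643 CPM. In every library the endothelial class was the highest of the classes, and its interval overlapped none of theirs.

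**Figure D1:**
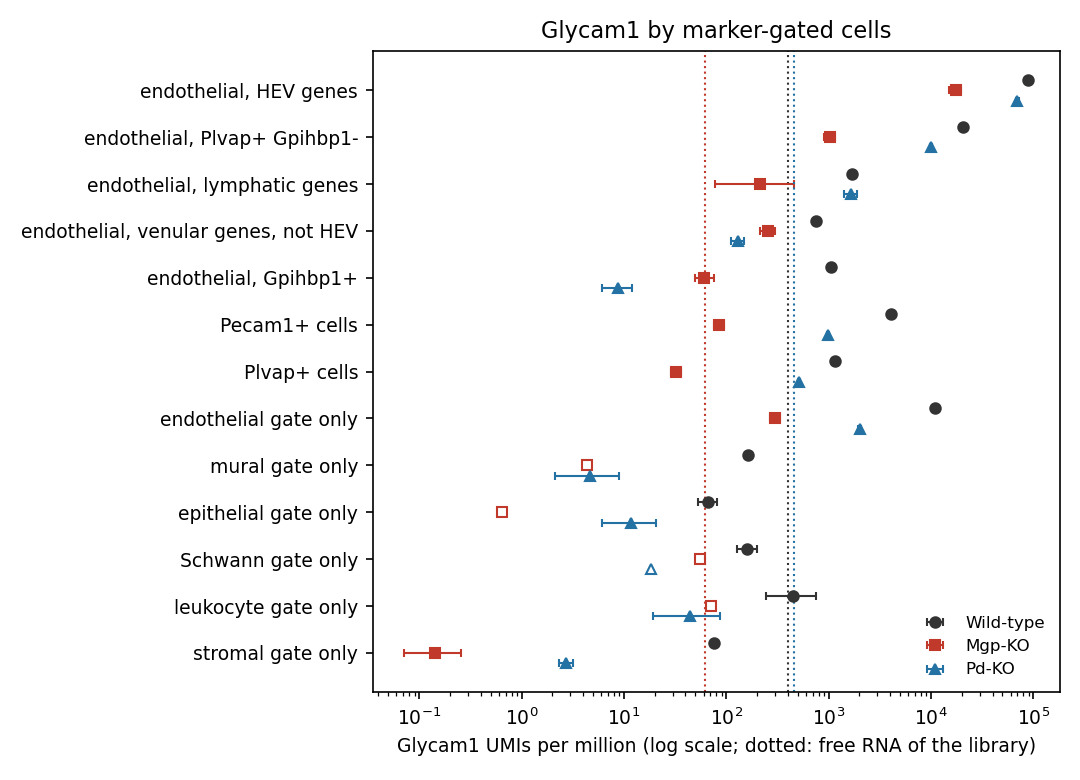
*Glycam1* CPM (log axis) in marker-gated cells of each library (circles wild-type, squares Mgp-KO, triangles Pd-KO), with 95% Poisson intervals. Open symbols mark sets without a UMI, drawn at the level that 3 counts would give, and dotted lines mark the free RNA of each library. Endothelial cells with HEV genes stood highest in every library, at 89291, 17427 and 70175 CPM.

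The share of cells with a *Glycam1* UMI gave another picture. It was 57.7% of all wild-type cells, against 0.199% of *Mgp*-KO cells and 1.87% of *Pd*-KO cells. In wild-type endothelial cells the share was 51.5% at a median of 4686 UMIs, and in stromal cells, which are not known to express the gene, it was 58.4% at a median of 13203 UMIs. These depths differ, and after each cell was thinned to 1000 UMIs the shares were 22% of endothelial and 9.33% of stromal cells. At equal depth the endothelial share was thus above the stromal one, but it was not the highest. The thinned share was 37.9% in the 11 leukocytes and 29.0% in the 467 cells of no gate. It was 16.9% in mural, 15.5% in Schwann and 10.5% in epithelial cells. In the knockout libraries, 1.45% of *Mgp*-KO endothelial cells (median 2465.5 UMIs) and 2.18% of *Pd*-KO endothelial cells (median 3328 UMIs) had a UMI, against 0.0997% and 1.85% of stromal cells at medians of 6445.5 and 8864.5 UMIs. The cells with a *Glycam1* UMI in the wild-type library mostly had 1 UMI: 6545 cells had at least 1 UMI, 2888 at least 2, and 89 at least 10.

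*Pecam1*, a junction protein of all endothelial cells, and *Plvap*, a diaphragm protein of fenestrated and venular endothelium, gave the same order of libraries. The 1635 wild-type cells with a *Pecam1* UMI had 4051 CPM of *Glycam1*, the 676 *Mgp*-KO cells 85.2 CPM and the 1166 *Pd*-KO cells 994 CPM. In cells without a *Pecam1* UMI, the levels were 78.9, 0.441 and 2.94 CPM. Cells with a *Plvap* UMI had 1161, 32.4 and 517 CPM, and cells without one 84.4, 0.229 and 5.30 CPM. *Plvap* was less selective than *Pecam1*, since 4602 wild-type cells had a *Plvap* UMI.

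Among all cells that passed the endothelial gate, with or without another gate (1192, 446 and 997 cells), *Gpihbp1*, the lipase anchor of capillary endothelium, divided cells of high and lower *Glycam1*. The cells with *Plvap* and without *Gpihbp1* had 20562 CPM in the wild-type library (298 cells), 1032 CPM in the *Mgp*-KO library (63 cells) and 10116 CPM in the *Pd*-KO library (127 cells). The *Gpihbp1*-positive cells had 1068 CPM (768 cells), 61.1 CPM (342 cells) and 8.76 CPM (767 cells). Few cells carried these sums: without the *Glycam1*-rich cells that are described further on, the cells with *Plvap* and without *Gpihbp1* stood at 128, 22.1 and 36.2 CPM, and the *Gpihbp1*-positive cells at 105 CPM, 0 UMIs and 5.12 CPM.

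Cells of high endothelial venules were taken as endothelial cells with at least 2 detected genes of *Chst4*, *Fut7*, *Madcam1*, *Gcnt1* and *B3gnt3*. *Chst4* and *Gcnt1* encode a sulfotransferase and a branching enzyme, *Fut7* the fucosyltransferase that completes these sugars, and *Madcam1* a mucosal addressin. There were 50 such cells in the wild-type library, 3 in the *Mgp*-KO library and 14 in the *Pd*-KO library. As a share of the endothelial gate these were 4.19% (3.13 to 5.49), 0.673% (0.139 to 1.95) and 1.40% (0.770 to 2.34). These shares include cells that met the rule only with *B3gnt3* counted. The 50, 3 and 14 cells held 83.2%, 54.1% and 92.6% of the *Glycam1* UMIs of kept cells.

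In the wild-type HEV-gene cells, *Glycam1* ranged from 0 to 12352 UMIs per cell with a median of 159. Of the 50 cells, 36 had at least 10 UMIs, 19 had at least 1000, and 6 had none. In the highest cell by share, 33.7% of all UMIs were *Glycam1*. The 3 *Mgp*-KO cells had 203, 14 and 0 UMIs. The 14 *Pd*-KO cells had 3223, 2046, 879, 482, 41, 6 and 3 UMIs, and 7 had none. Cells with many UMIs and cells with none were thus found under the same gate in each library, and the ranges of the libraries overlapped. Every cell of this gate without a *Glycam1* UMI passed it only with *B3gnt3* counted. Most of those cells had a *Gpihbp1* UMI, and most had no UMI of *Fut7* or *Chst4*.

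As sums, the HEV-gene cells had 89291 CPM of *Glycam1* in the wild-type library, 17427 CPM in the *Mgp*-KO library and 70175 CPM in the *Pd*-KO library. The log2 ratios to wild-type were -0.35 (-0.38 to -0.31) for *Pd*-KO and -2.36 (-2.56 to -2.16) for *Mgp*-KO. By this gate, both ratios were nearer to 0 than those of the whole endothelial class. The median per cell was 159, 14 and 1.5 UMIs, and 3 of the *Pd*-KO cells held 6148 of their 6680 *Glycam1* UMIs. These medians include the cells without a *Glycam1* UMI, which passed the gate only with *B3gnt3* counted. The *Mgp*-KO value rests on 3 cells. A second definition, all kept cells with at least 2 UMIs over *Fut7* and *Chst4*, was added after the values had been seen. By it, the 3 *Mgp*-KO cells had 16, 14 and 2 UMIs (1234 CPM), the 41 wild-type cells 100336 CPM and the 8 *Pd*-KO cells 91342 CPM. The *Mgp*-KO level then lay further below the wild-type level than in the whole endothelial class.

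Cells with at least 2 genes of the venular list (*Ackr1*, *Selp*, *Sele*, *Vwf*, *Lrg1* and *Nr2f2*) but outside the HEV-gene cells had much less *Glycam1*. Their level was 749 CPM in 366 wild-type cells, 256 CPM in 93 *Mgp*-KO cells and 130 CPM in 178 *Pd*-KO cells. Of these cells, 148 of 366, 87 of 93 and 171 of 178 had no *Glycam1* UMI. Without the *Glycam1*-rich cells among them, 20, 4 and 3 in number, their levels were 118, 11.7 and 14.6 CPM.

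**Figure D2:**
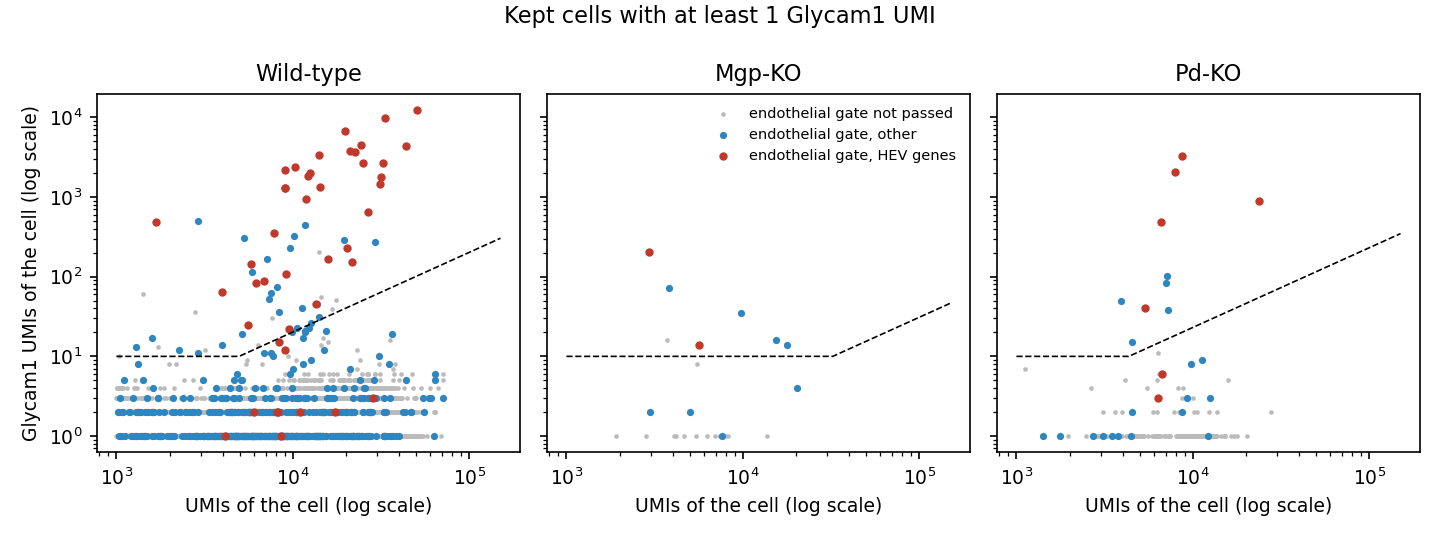
*Glycam1* UMIs against all UMIs of each kept cell with at least 1 *Glycam1* UMI (both log axes), with cells outside the endothelial gate in grey, cells of the endothelial gate in blue and those with HEV genes in red. The dashed line is the limit for a Glycam1-rich cell. A cloud of cells with 1 to a few UMIs fills the wild-type panel, and cells of 1000 UMIs or more are red in the wild-type (19 cells) and Pd-KO (2 cells) panels.

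A cell was called *Glycam1*-rich when it held at least 10 *Glycam1* UMIs at 5 or more times the share found in the free RNA of its library. The limit was therefore 2019, 310 and 2309 CPM, so *Mgp*-KO cells were called rich at a lower level than those of the other libraries. This rule used *Glycam1* itself. It was met by 70 cells of the wild-type library, 7 of the *Mgp*-KO library and 10 of the *Pd*-KO library, which held 87.4%, 92.3% and 96.5% of the *Glycam1* UMIs of kept cells. The lowest rich cells had 10, 14 and 15 UMIs, and the highest cells that were not rich had 23, 8 and 11 UMIs. Of the rich cells, 59 of 70, 6 of 7 and 10 of 10 passed the endothelial gate. The 11 others of the wild-type library had 10 to 202 UMIs, and 1 of them had a *Pecam1* UMI. In the wild-type library 41 of the 70 rich cells passed several gates, in the *Mgp*-KO library 3 of 7 and in the *Pd*-KO library 2 of 10. Of the rich cells that passed the endothelial gate, 39 of 59, 3 of 6 and 2 of 10 also passed another gate. Among all cells that passed the endothelial gate these numbers were 679 of 1192, 102 of 446 and 216 of 997, so passing several gates was also common there. No doublets were removed, and the part of doublets and of free stromal RNA in this was not tested. By *Xist* and Y-linked UMIs, 16 rich cells were called female and 33 male in the wild-type library, 2 and 1 in the *Mgp*-KO library, and 5 and 4 in the *Pd*-KO library. All cells that passed the endothelial gate were called 405 female and 324 male, 173 and 51, and 278 and 326 in the same order.

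Other genes were compared between the *Glycam1*-rich and the other cells of the endothelial gate. The rich cells held 812825 UMIs in the wild-type library but only 55023 and 81907 UMIs in the *Mgp*-KO and *Pd*-KO libraries, so a ratio for a low gene there rests on single UMIs. Across all genes with at least 20 UMIs, the share at least 2-fold higher in the rich cells was 6.19% of 12671 genes in the wild-type library, 21.1% of 8815 in the *Mgp*-KO library and 16.8% of 11495 in the *Pd*-KO library. The shares at least 2-fold lower were 16.5%, 17.3% and 17.2%. Counts of listed genes are read beside these.

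Of the 10 enzymes and transporters that build these lymphocyte-binding sugars, 6 were at least 2-fold higher in the wild-type rich cells (*Chst4*, *Chst2*, *Fut7*, *Fut4*, *Gcnt1* and *St3gal6*), a larger share than the 6.19% of all genes. Among *Pd*-KO cells 3 of 8 tested were higher (*Chst2*, *Fut7* and *Gcnt1*) and *B4galt1* was lower. The *B4galt1* call rested on 3 UMIs in 1 rich cell (log2 ratio -1.23, -3.51 to 0.33). In the *Mgp*-KO library 1 of 6 tested was higher (*Chst2*), a smaller share than the 21.1% of all genes. *Chst4*, *Fut7*, *Fut4* and *Gcnt1*, which were higher in the wild-type library, had too few UMIs to be tested there, so this share leaves them out. The median log2 ratio of the list was 1.73, 0.81 and 0.33, against -0.24, 0.09 and 0.03 over all genes.

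*Fut7* had 255 UMIs in the 59 wild-type rich cells (314 CPM, found in 33 cells) and 70 UMIs in the 1133 other endothelial cells (6.38 CPM), a log2 ratio of 5.62 (5.23 to 6.02). For *Pd*-KO it had 21 UMIs (256 CPM) against 15 (2.87 CPM), a log2 ratio of 6.48 (5.46 to 7.54), and in the *Mgp*-KO library 6 UMIs against 2. *Chst4* had 97 UMIs in wild-type rich cells and 1 UMI in the others. Among *Pd*-KO cells it had 11 UMIs in the rich cells and 0 in the others, and in the *Mgp*-KO library 1 and 0. *Gcnt1* had log2 ratios of 3.42 (2.93 to 3.91) in the wild-type and 4.73 (3.50 to 5.85) in the *Pd*-KO library. *Chst2*, a second sulfotransferase of the pathway, had log2 ratios of 2.51 (2.23 to 2.79) and 1.76 (0.67 to 2.67). *B3gnt3*, which extends the core branch of the same sugars, had 0.07 (-1.10 to 1.04) in the wild-type library.

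The other protein carriers of these sugars did not follow *Glycam1* as a group. *Madcam1* was higher in the rich cells of the wild-type library (log2 ratio 4.60, 4.21 to 5.00) and of the *Pd*-KO library (5.13, 3.92 to 6.26). *Podxl*, podocalyxin, was lower, with 9 UMIs in wild-type rich cells against 1638 in the others (log2 ratio -3.75, -4.89 to -2.83), 1 against 1410 in the *Pd*-KO library and 0 against 284 in the *Mgp*-KO library. *Cd34* had log2 ratios of -0.41 (-0.61 to -0.21), 0.25 (-0.36 to 0.80) and -0.78 (-1.36 to -0.26). *Emcn* was 2-fold lower in both knockout libraries and had -0.91 (-1.16 to -0.68) in the wild-type library.

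Of the listed genes of lymphocyte attraction, adhesion and noncanonical NF-κB signaling, 8 of 12 tested were higher in the wild-type rich cells. In the *Mgp*-KO library 7 of 10 were higher, and in the *Pd*-KO library 9 of 11. The shares of all genes at least 2-fold higher were 6.19%, 21.1% and 16.8%. Some calls rested on few UMIs. In the *Mgp*-KO rich cells *Relb*, *Nfkb2* and *Map3k14* had 3 or 4 UMIs, with intervals that included 0. *Cxcl13* was called lower there on 0 UMIs, with an upper limit of 0.32. In the *Pd*-KO library the intervals of *Ch25h* (1 UMI) and *Cxcl13* (3 UMIs) included 0. On raw counts, *Relb* in that library (log2 ratio 0.94) and *Map3k14* in the wild-type library (0.99) did not reach 2-fold. *Ccl21a*, a chemokine for lymphocytes that shares near-identical copies and is uncertain for that reason, had 5501, 3835 and 3870 CPM in the rich cells against 62.3, 28.4 and 58.2 CPM in the others. *Enpp2*, the enzyme autotaxin, had log2 ratios of 2.80 (2.66 to 2.94), 4.04 (3.51 to 4.55) and 4.00 (3.66 to 4.33). *Vcam1*, an adhesion receptor, had 1.66 (1.42 to 1.89), 2.14 (1.26 to 2.93) and 2.43 (1.57 to 3.20).

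Capillary and arterial markers were mostly lower in the rich cells, and of the lymphatic list only *Prox1* was higher in every library. All 5 capillary genes (*Gpihbp1*, *Cd36*, *Fabp4*, *Rgcc* and *Car4*) were at least 2-fold lower in each library, with median log2 ratios of -3.72, -3.95 and -5.93. Of the 6 arterial genes, 5, 4 and 4 were lower. The shares of all genes at least 2-fold lower were 16.5%, 17.3% and 17.2%. In the *Mgp*-KO library *Gja5* and *Hey1* were called lower on 0 UMIs in the rich cells, with upper limits of 1.54 and 0.41. Of the lymphatic list, 1 of 4 tested was higher in the wild-type, 1 of 2 in the *Mgp*-KO and 3 of 4 in the *Pd*-KO library. *Prox1* was higher in every library (log2 ratios 1.53, 3.98 and 3.11) and was found in 21, 1 and 3 rich cells. The other listed genes were not higher in the wild-type library. *Mmrn1* had a log2 ratio of -0.15 (-1.08 to 0.66) there, *Flt4* -0.37 (-1.20 to 0.35) and *Reln* -1.38 (-6.72 to 1.20). *Mmrn1* and *Reln* were higher in the *Pd*-KO library on 2 and 6 UMIs, each in 1 rich cell. The 2-fold calls were made with 0.5 counts added, and without them *Mmrn1* had a log2 ratio of 0.85 (-2.23 to 2.75). *Flt4* was called lower in the *Mgp*-KO library on 0 UMIs in the rich cells, with an upper limit of 1.72. Of the 6 venular genes, 3 were higher in the wild-type library, 1 in the *Mgp*-KO library and 4 in the *Pd*-KO library. The shares of all genes at least 2-fold higher were 6.19%, 21.1% and 16.8%, so 1 of 6 in the *Mgp*-KO library was the smaller share. In the *Pd*-KO library *Sele* was higher and *Selp* lower, each with 1 UMI in the rich cells. Without added counts, *Sele* (log2 ratio 0.54, -4.80 to 3.09) and *Nr2f2* (0.96, 0.15 to 1.68) did not reach 2-fold there. *Ackr1*, the venular chemokine receptor, was higher in every library, with log2 ratios of 1.22 (0.96 to 1.48), 1.00 (-0.24 to 2.02) and 1.70 (0.93 to 2.38), of which the interval of the *Mgp*-KO library included 0.

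**Figure D3:**
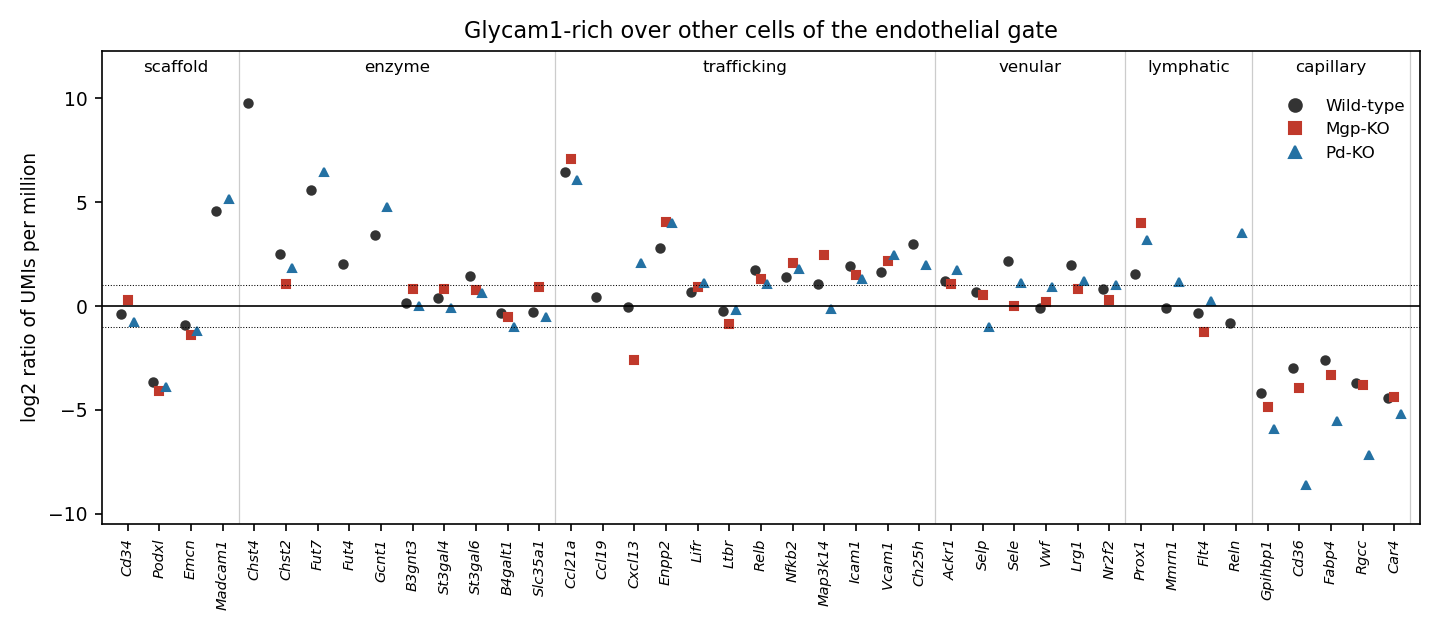
Log2 ratio of CPM, with 0.5 counts added, in Glycam1-rich over other cells of the endothelial gate for listed genes with at least 20 UMIs in a library (circles wild-type, squares Mgp-KO, triangles Pd-KO). Dotted lines mark 2-fold. *Fut7*, *Chst4*, *Ccl21a* and *Enpp2* lie above the lines where plotted and the capillary genes lie below them in every library.

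A fixed rule named the 20 genes with the largest ratio in every library among 1789 genes with at least 50 CPM in the rich cells. *Ccl21a* led them with a smallest log2 ratio of 6.06, followed by *Ubd* (5.26), which encodes a ubiquitin-like protein induced by cytokines, *Pglyrp1* (4.35), a peptidoglycan recognition protein, *Bmp2* (3.29), a BMP ligand, and *Cd74* (3.27), the invariant chain of MHC class II. The others were *Serpina3g*, *Pf4*, *Birc3*, *Foxp4*, *Enpp2*, *Cfb*, *Sema3a*, *F8*, *Dclk1*, *Clu*, *Dock10*, *Il2rg*, *Cyp1b1*, *Cd55* and *Tnfaip3*, with smallest log2 ratios from 3.18 down to 2.20. In the knockout libraries these genes had few UMIs in the rich cells, for instance 4 and 10 of *Serpina3g*.

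The *Glycam1*-rich endothelial cells were not all alike, a division seen first in the list of wild-type cells and not planned. Of the 59 wild-type cells, 34 were among the HEV-gene cells and 25 were not, and of the 10 *Pd*-KO cells, 5 were and 5 were not. The latter had fewer than 2 detected genes of the HEV list and are called cells without HEV genes for short. The cells with HEV genes had 123180 CPM of *Glycam1* in the wild-type and 128013 CPM in the *Pd*-KO library, and the cells without them 14062 and 9700 CPM. The wild-type cells without HEV genes were mixed: the highest of them, with 492 *Glycam1* UMIs, had 2 UMIs of *Fut7*, 159 of *Ccl21a* and 0 of *Prox1*. Among the wild-type cells without HEV genes, 18 of 25 had a UMI of *Prox1*, the transcription factor of lymphatic endothelium, against 3 of 34 with HEV genes. In the *Pd*-KO library these numbers were 3 of 5 and 0 of 5.

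The level of *Prox1* was 351 CPM (278 to 438) in the wild-type cells without HEV genes and 10.2 CPM (3.73 to 22.1) in those with HEV genes. *Lyve1*, the hyaluronan receptor of lymphatic endothelium, had 549 CPM (456 to 656) and 13.5 CPM (5.85 to 26.7). *Bmp2* had 644 CPM (543 to 758) and 49.1 CPM (32.9 to 70.5) and was thus carried mainly by the cells without HEV genes. *Madcam1* was found in 21 of 25 cells without HEV genes although it is 1 of the 5 HEV genes, and by the gate those cells could have no other gene of that list.

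In the *Pd*-KO library the cells without HEV genes had *Prox1* at 336 CPM (161 to 617) and *Bmp2* at 705 CPM (436 to 1077), and the cells with HEV genes had no UMI of *Prox1*, *Lyve1*, *Bmp2* or *Madcam1*. *Ctla2a*, an endothelial protease inhibitor gene, ran the other way, at 4009 CPM in wild-type rich cells with HEV genes and 513 CPM in those without, and at 2706 and 67.1 CPM in the *Pd*-KO library. Both kinds of cells were thus counted in both libraries. In the *Mgp*-KO library, with 2 and 4 rich endothelial cells, this was not examined further.

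**Figure D4:**
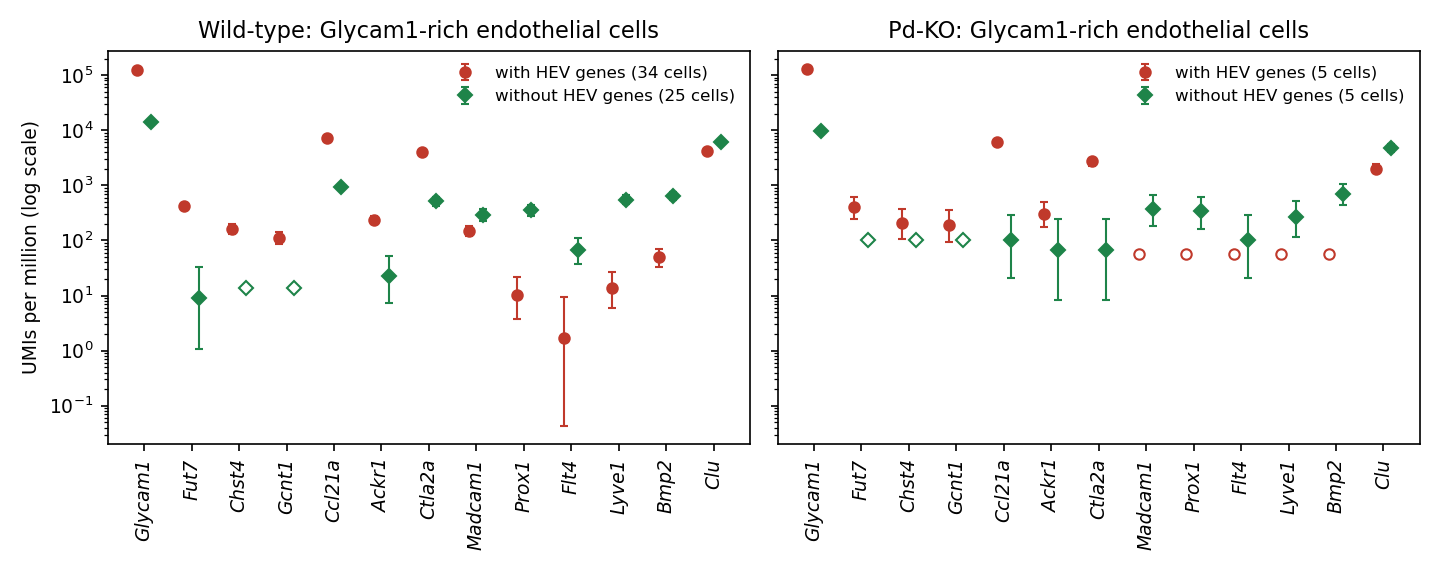
CPM (log axis) of 13 genes in Glycam1-rich endothelial cells with HEV genes (circles) and without them (diamonds) in the wild-type library (34 and 25 cells) and the Pd-KO library (5 and 5 cells), with 95% Poisson intervals and open symbols at 3 counts where no UMI was found. *Fut7*, *Chst4*, *Gcnt1* and *Madcam1* were used to divide the cells. *Prox1*, *Lyve1* and *Bmp2*, which were not, stood higher in the cells without HEV genes in both libraries.

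The same cells were then sought without *Glycam1*, by genes chosen after these values were seen. Outside the HEV-gene cells, endothelial cells with both a *Prox1* and a *Madcam1* UMI had 4037 CPM of *Glycam1* (3859 to 4222) in 35 wild-type cells. Of these, 18 were the *Glycam1*-rich cells from which the genes had been picked, so a high level was set by the choice and is no independent support. A *Glycam1* UMI was found in 30 of the 35, against 53.9% of all wild-type endothelial cells outside the HEV-gene cells. The 30 include those 18 cells, so this share too was set by the choice. Median depths also differed, at 9869 and 6884 UMIs. Cells with *Prox1* and without *Madcam1* had 177 CPM (145 to 214) in 63 cells. In the *Pd*-KO library 7 cells with both genes had 3313 CPM (2785 to 3912) and 15 cells with *Prox1* alone had no *Glycam1* UMI, and 3 of the 7 were rich cells. In the *Mgp*-KO library, 2 cells with both genes held 4 UMIs and 6 cells with *Prox1* alone held 16. By the lymphatic list (at least 2 of *Prox1*, *Mmrn1*, *Flt4* and *Reln*), the level was 1695 CPM in 73 wild-type cells, 213 CPM in 4 cells of *Mgp*-KO mice and 1650 CPM in 17 cells of *Pd*-KO mice. The median *Glycam1* count of these lymphatic-gene cells was 2, 1 and 0 UMIs.

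The 10 genes whose level ran most like *Glycam1* over 22 sums by class and library, by Pearson correlation of log2(CPM + 1) among 16184 genes, were *Ctla2a* (0.86), *Pcdh17* (0.83), *Oit1* (0.82), *Madcam1* (0.82), *Sod1* (0.81), *Lyve1* (0.81), *Icam2* (0.81), *Marco* (0.81), *Gimap4* (0.81) and *Rasip1* (0.80). These sums share libraries, and the correlation is a description. The value was 0.76 for *Chst4*, 0.75 for *Fut7*, 0.71 for *Plvap* and 0.70 for *Pecam1*.

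Outside cells, *Glycam1* stood at 404 CPM (368 to 442, 464 UMIs) in the free RNA of the wild-type library, 62.0 CPM (45.9 to 82.0, 49 UMIs) in that of the *Mgp*-KO library and 462 CPM (439 to 485, 1544 UMIs) in that of the *Pd*-KO library. The wild-type and *Pd*-KO libraries were close in free RNA (log2 ratio 0.19, 0.04 to 0.35), whereas their kept cells differed by a log2 ratio of -2.67 (-2.71 to -2.64). This holds for barcodes of 10 to 100 UMIs, and the levels were 882 and 136 CPM at 1 to 9 UMIs and 1508 and 153 CPM above 100 and up to 500 UMIs. Kept cells were above free RNA in the wild-type library (log2 ratio 0.57, 0.43 to 0.70) and below it in the *Mgp*-KO (-3.80, -4.23 to -3.35) and *Pd*-KO (-2.30, -2.38 to -2.22) libraries. The wild-type barcodes above 100 and below 1000 UMIs, far richer in UMIs than the free RNA, stood at 1431 CPM, above the kept cells.

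Among all genes tested for the ratio of free RNA over cells, *Glycam1* lay at percentile 99.9 of 5937 genes in the *Mgp*-KO library and 99.6 of 10714 genes in the *Pd*-KO library, but at percentile 14.6 of 7334 genes in the wild-type library. With barcodes above 100 and below 1000 UMIs in place of free RNA, the order of the wild-type and *Pd*-KO libraries turned. The percentile was 98.5 in the wild-type library (log2 ratio 1.26) and 64.9 in the *Pd*-KO library (log2 ratio 0.10). In the *Mgp*-KO library *Glycam1* had 8 UMIs in these barcodes, under the 20 UMIs needed for a gene to be tested, so it has no percentile there. Values of other endothelial genes are given for barcodes of 10 to 100 UMIs. *Pecam1* had 32.9 CPM in free RNA and 21.1 CPM in cells of the *Mgp*-KO library, and 130 and 70.8 CPM in the *Pd*-KO library. *Plvap* had 68.3 and 53.4 CPM, and 87.0 and 126 CPM. *Ccl21a* had 10.1 and 10.7 CPM, and 15.9 and 11.1 CPM. In these knockout barcodes the 3 genes were nearer to equal between free RNA and cells than *Glycam1* was. In the wild-type library *Plvap* (log2 ratio -0.64) and *Ccl21a* (-0.95) were further from equal than *Glycam1* (-0.56), and in *Pd*-KO barcodes above 100 and below 1000 UMIs *Pecam1* (1.97) and *Plvap* (0.60) were further than *Glycam1* (0.10).

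The endothelial class stood above the free RNA of its own library, with log2 ratios of 4.77 in the wild-type, 2.29 in the *Mgp*-KO and 2.12 in the *Pd*-KO library. In both knockout libraries this rested on a handful of cells, and without the 5 richest cells of each library the ratios were -1.73 and -2.44, so the direction turned. In the wild-type library it was 3.67 without them, and without all 20 rich cells of its 513 endothelial cells it was -1.13, so there too the direction rested on the rich cells. The level also varied with the depth of barcodes. In the wild-type library it was 882 CPM in barcodes of 1 to 9 UMIs, 1508 CPM above 100 and up to 500 UMIs, and 608 CPM above 5000 UMIs. In the *Pd*-KO library it was 136 CPM at 1 to 9 UMIs, 153 CPM above 100 and up to 500 UMIs and 103 CPM above 5000 UMIs, and in the *Mgp*-KO library 218, 34.3 and 1.39 CPM.

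**Figure D5:**
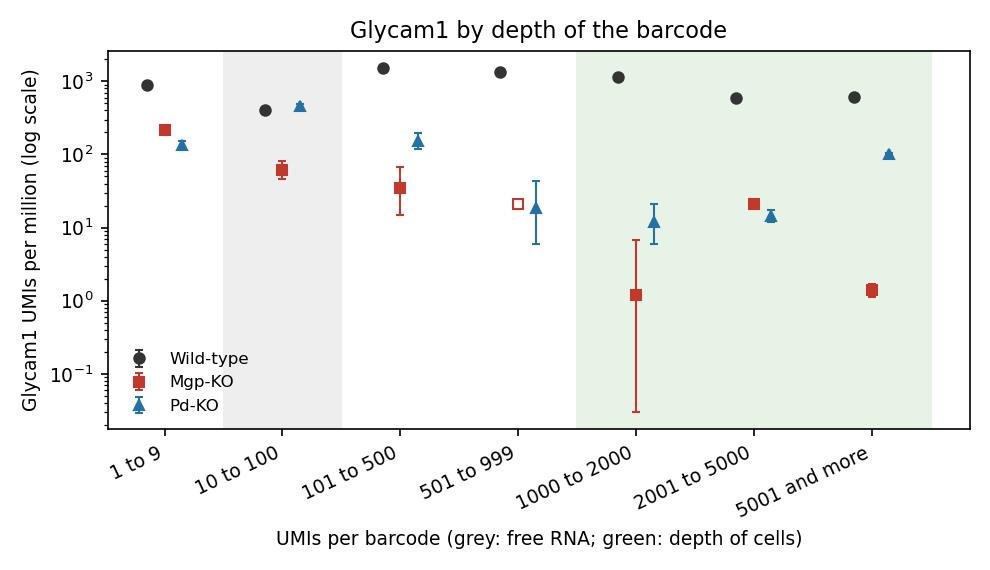
*Glycam1* CPM (log axis) by the number of UMIs of the barcode (circles wild-type, squares Mgp-KO, triangles Pd-KO), with 95% Poisson intervals and an open symbol at 3 counts where no UMI was found. All barcodes of a depth are summed, without a limit on mitochondrial UMIs. The wild-type level was between 404 and 1508 CPM at every depth, and the knockout levels were lower in deep barcodes than in free RNA.

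Genes of the lymph node and of the mammary gland, which both lie in the pad, were read beside these levels. Lymph node stromal genes (*Ccl19*, *Cxcl13*, *Ccl21a*, *Tnfsf11* and *Cr2*, all 5 detected in kept cells of each library) summed to 369, 275 and 58.3 CPM in kept cells and to 177, 186 and 81.1 CPM in free RNA. The 12 lymphocyte genes, which CD45 sorting should remove, summed to 15.9, 16.6 and 40.3 CPM in kept cells, with all 12 detected in each library, and had 14 UMIs in the wild-type rich endothelial cells and 0 in those of either knockout library. Cells that passed the stromal gate only held 9939 of the 54021, 22040 of the 24883 and 3297 of the 4488 lymph node stromal UMIs of kept cells. The stromal gate does not separate stroma of the lymph node from that of the fat, and which of them held these UMIs was not tested. *Ccl21a* by itself had 182, 10.7 and 11.1 CPM in kept cells. How much of a lymph node was dissected with each pad is not given in the sources used here, and its part in the library differences was not tested.

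The mammary gland was the other known source. In luminal epithelial cells, *Glycam1* had 66.2 CPM (53.6 to 80.7, 109 cells) in the wild-type library, at about the level of stromal cells, and 11.8 CPM in those of the *Pd*-KO library. No UMI was found in 514 *Mgp*-KO luminal cells, which allows up to 0.648 CPM. The casein gene *Csn3* had 432, 354 and 185 CPM in the luminal cells, so luminal cells with casein RNA and without *Glycam1* UMIs were counted in the *Mgp*-KO library. The main milk genes *Csn2* and *Wap* had no UMI in kept cells of the wild-type and *Pd*-KO libraries. Of the 8 milk genes, 2 had enough UMIs to be tested in the *Glycam1*-rich endothelial cells of the wild-type library and 1 in each knockout library. *Mfge8*, which is also made outside the mammary gland, was at least 2-fold higher in the wild-type and *Pd*-KO libraries. In the *Mgp*-KO library it had a log2 ratio of -0.53 (-1.75 to 0.46). *Csn3* was at least 2-fold lower in the wild-type library, with 5 UMIs in the rich cells against 470. The shares of all genes at least 2-fold higher were 6.19%, 21.1% and 16.8%.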

How the data were processed

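10x Genomics 3′ v3 libraries were sequenced by the study. What the authors deposited is a table of UMI counts for each gene in each barcode, neither normalized nor limited to called cells. The methods name mm10 and the labels GRCm39. The methods and labels name Cell Ranger 6.1.1, and the file headers Cell Ranger 4 (wild-type) and 7.1.0 (both knockouts). Intron counting is not given in the sources used here, so library differences include any difference in counting. Of 32285 genes, 99.6% were in GENCODE M21 (GRCm38), which gave coordinates and sequence.

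The gene and the gene lists were chosen with earlier results of these data known, and the split of *Glycam1*-rich cells by HEV genes, *Prox1* and *Madcam1* was made after values were seen. *Fdcsp* of the lymph node list was not in the files. Cells were kept at 1000 or more UMIs and up to 10% mitochondrial UMIs. No doublet caller was run, and cells passing several of 7 gates were left out of single classes. CPM is UMIs per 1000000 UMIs of the summed barcodes. Intervals (95%) are exact Poisson for sums, Clopper-Pearson for shares and exact conditional binomial for log2 ratios. UMIs are counted molecules, but the intervals cover counting error only. A count of 0 allows 3 counts. Thinning to 1000 UMIs used the hypergeometric law. The text names listed genes, the 20 genes with the largest ratio in rich cells, ranked by their smallest value over the libraries, and the 10 genes most like *Glycam1* (at least 100 UMIs, sums of at least 20 cells). Steps were checked on simulated counts. With 1 library per genotype, no p-value was computed. Depth was 184102026 (wild-type), 93212243 (*Mgp*-KO) and 83942865 (*Pd*-KO) UMIs. Python 3.11.15, NumPy 2.4.6, SciPy 1.17.1 and pandas 2.3.3 were used. One listed gene is not reported here.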

Additional observations from a re-analysis of the deposited data

Results flagged for a closer look

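Barcodes of more than 100 and fewer than 1000 UMIs were used neither as cells nor as free RNA, and *Glycam1* was found in them in each library. Its level there was 1431 CPM in the wild-type library (44482 UMIs in 71946 barcodes). It was 21.2 CPM in the *Mgp*-KO library (8 UMIs in 1353 barcodes) and 100.0 CPM in the *Pd*-KO library (68 UMIs in 2590 barcodes). In the wild-type library this was above both the free RNA and the kept cells, the highest barcode held 243 UMIs, and 76 barcodes held at least 10.

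The 745 wild-type barcodes left out for more than 10% mitochondrial UMIs had *Glycam1* at 1651 CPM (3466 UMIs), and the highest of them held 690 UMIs. The 30 such *Mgp*-KO barcodes held 2 UMIs and the 390 *Pd*-KO barcodes 3 UMIs.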

How the results depend on the processing

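Over the alternatives for the main results, 57 values stayed within their counting interval (counts of cells within 1.5 times), 38 moved by more and 2 reversed. The ratio of *Glycam1* in the endothelial class over free RNA (log2, main values 4.77, 2.29 and 2.12 in wild-type, *Mgp*-KO and *Pd*-KO) was 2.24 in *Pd*-KO at a minimum of 2000 UMIs, 5.22, 0.36 and 3.40 at 5000 UMIs, and 2.22 in *Pd*-KO at 5% mitochondrial UMIs. With free RNA from barcodes of 1 to 9 UMIs it was 3.64, 0.47 and 3.89, from above 100 to 500 UMIs 2.87, 3.14 and 3.71, and from above 100 to below 1000 UMIs, chosen after seeing the data, 2.94, 3.83 and 4.33. With cells of at least 1 *Pecam1* UMI it was 3.33, 0.46 and 1.11, with other gates allowed 4.02, 1.63 and 1.51, and with cells weighted equally 3.49 in wild-type and 1.05 in *Pd*-KO. Without the 5 cells with most *Glycam1* of each library it was 3.67, -1.73 and -2.44, the 2 reversals, in libraries where those cells held 85.3% and 93.4% of the UMIs.

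The ratio of knockout over wild-type in the endothelial class (-5.18 in *Mgp*-KO, -2.45 in *Pd*-KO) kept its sign in every alternative run. It was -4.90 and -2.38 at 2000 UMIs, -7.56 and -1.63 at 5000 UMIs, -5.57 and -2.03 with a *Pecam1* UMI, -8.10 and -5.92 without the 5 richest cells, and -4.09 and -2.25 with cells weighted equally. In *Pd*-KO it was -2.54 without a mitochondrial limit, -2.31 with other gates allowed and -2.64 scaled by the median of ratios. Taking out 5 cells removes a larger part of the rich cells of the knockout libraries, so the wider gap there is in part set by that step. The number of rich cells was 70, 7 and 10. By the rule for counts given above it moved in *Mgp*-KO only, to 4 at 5000 UMIs and to 3 at 20 *Glycam1* UMIs. That rule is wide, and within it the wild-type number ranged from 47, at 20 times the free RNA share, to 105, at a minimum of 500 UMIs. The *Pd*-KO number ranged from 7, at 20 times, to 11, for instance with free RNA from barcodes of 1 to 9 UMIs. Why these numbers changed was not tested. No paired analysis was possible because each genotype has 1 library.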

Other observations

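Hemoglobin RNA stood apart from *Glycam1* in the free RNA of the wild-type library. The 5 erythrocyte genes summed to 31943 CPM there, against 1327 CPM in the *Mgp*-KO and 627 CPM in the *Pd*-KO library, and to 777, 326 and 460 CPM in kept cells. In the *Glycam1*-rich endothelial cells they summed to 54.1 CPM, 0 UMIs and 24.4 CPM.

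The 16 wild-type HEV-gene cells that were not *Glycam1*-rich had 187 CPM of *Glycam1* (135 to 253). They had *Gpihbp1* at 565 CPM, against 49.1 CPM in the 34 rich HEV-gene cells, and *Fut7* at 89.0 against 428 CPM. The 9 such *Pd*-KO cells had *Gpihbp1* at 1137 CPM, where the 5 rich cells had no UMI of it. The HEV list thus also took in cells with the capillary gene.

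Sex calls among the wild-type *Glycam1*-rich endothelial cells were 11 female and 14 male for those with HEV genes and 3 female and 17 male for those without. All wild-type cells that passed the endothelial gate were called 405 female and 324 male, and all kept wild-type cells 3793 female and 3757 male. With pooled mice, the cells of a sex can come from 1 animal, so these counts carry no test.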
